A study of Homo sapiens with 27 samples.

Results

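The hairpin 1 experiment made up 18 of the 27 libraries of the series. It compared 9 libraries of cells with CARM1 hairpin 1 with 9 libraries of cells with a scramble hairpin, 3 of each in every one of 3 human acute myeloid leukaemia (AML) cell lines: MOLM-13, MV411 and SKNO1. The libraries were taken by their labels, and every gene was compared between hairpin 1 and scramble with the cell line as a term of the model. The result is 1 effect over the 3 lines, which each line need not share, so the sign in each line is given as well. All cells carried a constitutive lentivirus, and RNA was taken on day 3. SKNO1 cells of every group had 10 ng/mL of GM-CSF, a myeloid growth factor, in the medium, and the labels name no supplement for MOLM-13 or MV411. The other 9 libraries, with CARM1 hairpin 2, were used to compare the hairpins with each other. No label says whether the 3 replicates of a group came from separate cultures or infections, so the p-values describe the spread among these samples, which may be technical. In bulk RNA, a change in the make-up of the culture and a change in RNA per cell cannot be told apart.

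CARM1, also called PRMT4, is an arginine methyltransferase that places asymmetric dimethyl marks on histone H3 and on other proteins, among them transcriptional coactivators, RUNX1 and splicing factors. It works with the nuclear receptor coactivators and the acetyltransferases EP300 and CREBBP at active genes, and leukaemia cells have been described as depending on it. MOLM-13 and MV411 carry KMT2A fusions, which keep HOXA and MEIS1 genes active, and SKNO1 carries the RUNX1-RUNX1T1 fusion.

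The libraries held 29004790 to 53291599 expected counts. Most fusion markers matched the line labels, with exceptions given below. The 5 KMT2A-associated markers (HOXA7, HOXA9, HOXA10, MEIS1 and PBX3) summed to 143.1 to 160.9 CPM (read counts scaled to the size of the library) in MOLM-13 hairpin 1 libraries and 187.1 to 217.8 CPM in MOLM-13 scramble libraries. They summed to 164.6 to 187.4 CPM in MV411 hairpin 1 libraries and 195.8 to 213.0 CPM in MV411 scramble libraries, and stayed under 0.1 CPM in SKNO1. HOXA7 was at or near 0 in MV411 as well. RUNX1T1 averaged 66.9 CPM in SKNO1 hairpin 1 libraries and 70.4 CPM in SKNO1 scramble libraries, and was under 0.2 CPM in the other lines. KIT, also on the RUNX1-RUNX1T1 marker list, averaged 258.2 CPM in SKNO1 hairpin 1 libraries and 270.5 CPM in scramble. In MV411 it averaged 16.6 CPM in hairpin 1 libraries and 12.3 CPM in scramble. The myeloid markers CD33 and SPI1 were present in every library. CD34, a member of the blast and the RUNX1-RUNX1T1 marker lists, was under 0.2 CPM everywhere, SKNO1 included. Of the marker lists of other cell types, the T and NK list reached 1 CPM through NKG7 and CD3D, the B cell list through CD79A, CD79B and PAX5, the epithelial list through KRT8 and KRT18 and the endothelial and fibroblast list through PECAM1 and VWF. NKG7, PECAM1 and CD79B differed between the groups in part of the lines, none past the threshold in the combined comparison or within a line. NKG7 averaged 42.1 CPM in MOLM-13 hairpin 1 libraries and 27.8 CPM in scramble, and 28.6 CPM in MV411 hairpin 1 libraries and 18.4 CPM in scramble. PECAM1 averaged 160 CPM in MOLM-13 hairpin 1 libraries and 90.6 CPM in scramble, but lay the other way in MV411, with 39.1 CPM in hairpin 1 libraries and 47.4 CPM in scramble, and in SKNO1, with 3.99 CPM in hairpin 1 libraries and 8.02 CPM in scramble. CD79B averaged 40.9 CPM in SKNO1 hairpin 1 libraries and 27.8 CPM in scramble, and was under 1 CPM in the other lines. By contrast CD3E, CD3G, MS4A1, PF4 and COL3A1 were at or near 0. The lines accounted for the first 2 principal components (59.9% and 23.3% of the variance). The third (4.11%) set hairpin 1 apart from scramble in MOLM-13 and MV411 and not fully in SKNO1, where its values overlapped. Replicate 1 of MOLM-13 hairpin 1 stood furthest from the others on the fourth component.

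The targeted gene was measured first. CARM1 (ENSG00000142453, chr19:10871513-10923070, plus strand, GRCh38) was lower in every hairpin 1 library than in any scramble library of its line. In MOLM-13 it had 2.87, 5.88 and 5.58 CPM in hairpin 1 libraries, against 20.1, 29.2 and 25.3 CPM in scramble libraries. In MV411 it had 5.70, 6.20 and 6.22 CPM in hairpin 1 libraries, against 22.9, 23.6 and 24.3 CPM in scramble libraries. In SKNO1 it had 8.29, 5.68 and 8.79 CPM in hairpin 1 libraries, against 16.4, 17.3 and 20.1 CPM in scramble libraries. The mRNA left with hairpin 1 was thus 19.2% ± 6.67 of the scramble mean in MOLM-13, 25.6% ± 1.24 in MV411 and 42.3% ± 9.32 in SKNO1 (SD, n = 3 each). Over the 3 lines CARM1 fell by 1.85 on the log2 scale (SE 0.17, adjusted p = 5.08e-06, edgeR quasi-likelihood test with Benjamini-Hochberg adjustment). An exact two-sided permutation test within lines gave p = 0.00025, the smallest value its 8000 regroupings allow. The knockdown was less deep in SKNO1 (log2 fold change -1.24) than in MOLM-13 (-2.37) or MV411 (-1.97), but the test of a difference among lines did not pass (adjusted p = 0.104). Set against hairpin 2 over the 3 lines, hairpin 1 left 0.93 more CARM1 mRNA (log2 difference, SE 0.19, adjusted p = 0.00678). Scaled to the total count alone, the hairpins overlapped in MOLM-13, with 2.39, 5.24 and 4.05 CPM in hairpin 1 libraries against 3.93, 4.69 and 2.21 in hairpin 2 libraries. They were apart in MV411, with 4.64, 5.79 and 5.12 in hairpin 1 libraries against 2.39, 3.79 and 2.28 in hairpin 2 libraries, and in SKNO1, with 9.67, 6.67 and 10.1 in hairpin 1 libraries against 3.38, 2.97 and 3.51 in hairpin 2 libraries. Whether the hairpins differed by unequal amounts among the lines was not tested.

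**Figure D1:**
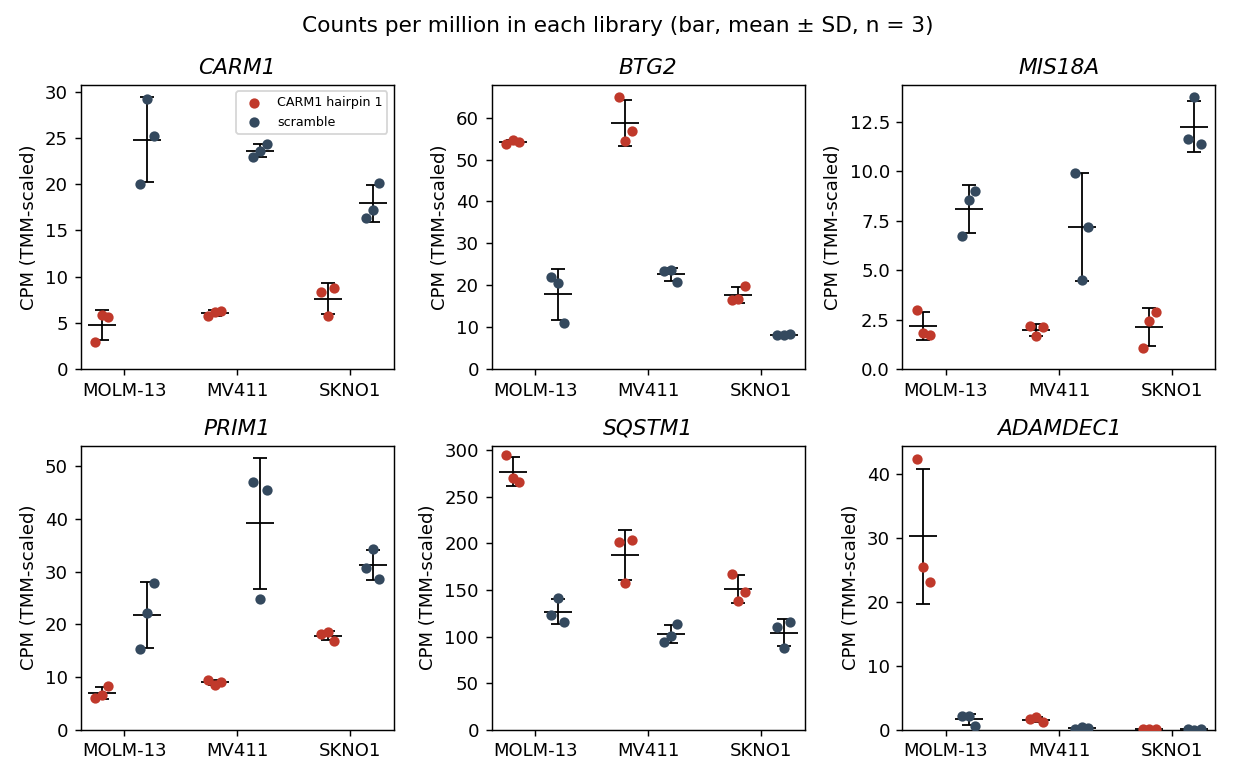
CPM (read counts scaled to library size by the TMM method, y axis) of 6 genes in each hairpin 1 library (red, left of each pair) and each scramble library (dark blue, right), by cell line, with the mean and SD of 3 libraries. CARM1, MIS18A and PRIM1 lay lower and BTG2 and SQSTM1 higher with hairpin 1 in all 3 lines, whereas ADAMDEC1 lay higher in MOLM-13 and MV411 and was near 0 in SKNO1.

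None of the 10 other tested genes of the arginine methyltransferase list passed the threshold between hairpin 1 and scramble with edgeR or DESeq2, and 1 had an unadjusted p under 0.05 (edgeR). PRMT1, the main asymmetric methyltransferase, had a log2 difference of -0.00 over the lines, made of -0.40 in MOLM-13, -0.01 in MV411 and 0.41 in SKNO1. PRMT5, which makes symmetric marks, had 0.02 (SE 0.12), and PRMT6, another asymmetric enzyme, -0.03 (SE 0.12). Between the hairpins, PRMT1 (0.43), PRMT3 (0.60), PRMT5 (0.56) and the PRMT5 partner WDR77 were higher and PRMT2 (-0.41) was lower with hairpin 1 than with hairpin 2 (log2 differences). Of 19 tested CARM1 substrates and coactivator partners, 1 fell, beside 6.46% of all tested genes that fell. It was the U1 snRNP protein SNRPC (log2 fold change -0.51, adjusted p = 0.0053, edgeR), and the median over the list was 0.01.

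Over all genes, 2190 of 20428 tested passed the threshold of an adjusted p of 0.05 (10.7%): 871 rose (4.26%) and 1319 fell (6.46%). DESeq2 called 2934, of which 1484 rose and 1450 fell (50.58% higher, against 39.77% with edgeR). Of the 2190, 1901 (9.31% of those tested) had the same sign in each of the 3 lines, 769 higher (3.76%) and 1132 lower (5.54%) with hairpin 1. Among these, 165 were over 2-fold higher and 344 over 2-fold lower. A further 227 differed in sign in a line, most often in SKNO1 (207), and 62 had no counts in a line. The sign of a combined effect depends in part on the lines that make it up, and 34.92% of all tested genes shared a sign in the 3 lines, against 86.8% of those that passed. The hairpin 1 and scramble libraries did not overlap in any of the 3 lines for 357 genes that passed, 114 higher and 243 lower. Over all tested genes this held for 117 higher (0.573%) and 247 lower (1.21%). In simulated data with changes of the same size in all 3 lines, the combined test recovered 71% of 2-fold and 89% of 4-fold changes. Measured changes were often unequal among the lines, so these shares need not hold for them.

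The size of the response differed among the lines. Over the 1901 genes, the median size of the log2 fold change was 0.77 in MOLM-13, 0.71 in MV411 and 0.48 in SKNO1, and it was smallest in SKNO1 for 1166 (61.34%). Tested within a line, 2231 genes passed in MOLM-13 (10.9%), 1002 higher (4.91%) and 1229 lower (6.02%). In MV411 1005 passed (4.92%), 279 higher (1.37%) and 726 lower (3.55%). In SKNO1 147 passed (0.720%), 98 higher (0.480%) and 49 lower (0.240%). The test of a difference in effect among the lines passed for 639 genes (3.13%), of which 129 were among the 1901. That count was 90 without SKNO1 scramble replicate 1 and 1128 without SKNO1 hairpin 1 replicate 2, the extremes over single libraries, and 189 without SKNO1 scramble replicate 3. With the replicate number as a block it was 1683, and with DESeq2 it was 1705. Replicates 1 and 3 of SKNO1 scramble were the closest pair of replicates in the series (chi-square per gene 7.75, against 23.2 for the next pair), and both lay further from replicate 2 (57.0 and 69.2). Leaving out SKNO1 gave 3815 combined calls, whereas 710 passed without MOLM-13 and 501 without MV411. CARM1 mRNA, the GM-CSF supplement and the fusion also differed between SKNO1 and the other lines. So did mitochondrial ribosomal RNA, at 0.0913% of the counts in SKNO1 scramble libraries against 24.9% in MOLM-13 and 26.2% in MV411. The part of each in the smaller response was not tested.

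**Figure D2:**
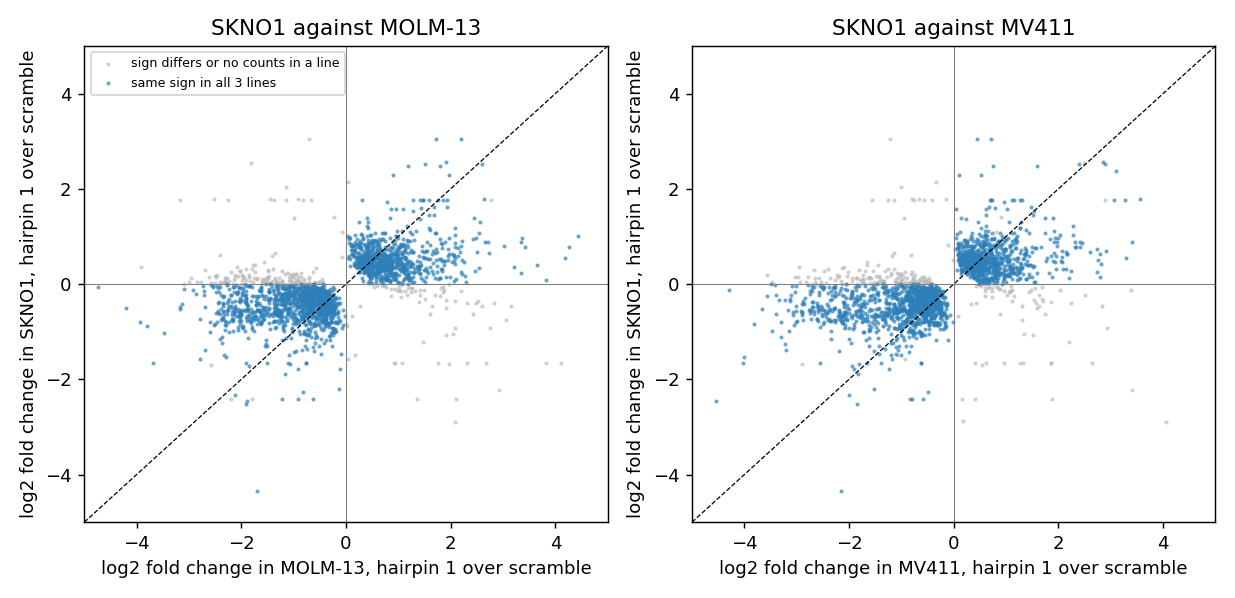
Log2 fold change, hairpin 1 over scramble, in SKNO1 (y axis) against MOLM-13 (left, x axis) and MV411 (right, x axis) for the genes past the threshold in the combined comparison, with the line of equal change dashed. Most same-sign genes (blue) lie between the x axis and the dashed line, that is, at smaller changes in SKNO1; short rows of points at the same SKNO1 value are genes with very few counts there, and 14 genes fall outside the axes.

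Only 12 genes, CARM1 among them, passed the threshold in the same direction within each line on its own. BTG2 (ENSG00000159388, chr1:203305491-203309602, plus strand), an antiproliferative gene that is induced by p53 and by growth factors, had the smallest p of all genes. It had 53.7, 54.8 and 54.3 CPM in MOLM-13 hairpin 1 libraries against 21.9, 20.5 and 10.9 CPM in scramble, and 65.0, 54.5 and 56.8 CPM in MV411 hairpin 1 libraries against 23.4, 23.5 and 20.7 CPM in scramble. In SKNO1 it had 16.5, 16.7 and 19.9 CPM in hairpin 1 libraries against 7.99, 7.98 and 8.28 CPM in scramble. The groups were apart in every line, and the combined log2 fold change was 1.38 (SE 0.12, adjusted p = 3.64e-06). BTG2 did not differ past the threshold between hairpin 1 and hairpin 2 (0.16, SE 0.12, adjusted p = 0.45).

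MIS18A (ENSG00000159055, chr21:32268219-32279069, minus strand), which helps to load the centromeric histone CENPA, was the gene with the deepest drop among those 12. It had 3.00, 1.80 and 1.71 CPM in MOLM-13 hairpin 1 libraries against 6.72, 8.56 and 9 CPM in scramble, and 2.17, 1.64 and 2.13 CPM in MV411 hairpin 1 libraries against 9.90, 4.48 and 7.16 CPM in scramble. SKNO1 hairpin 1 libraries had 1.06, 2.45 and 2.87 CPM against 11.7, 13.7 and 11.4 CPM in scramble, so that MIS18A, unlike most genes, fell furthest in SKNO1 (log2 -2.52 there and -2.10 over the lines, SE 0.20, adjusted p = 7.03e-06). The difference among lines did not pass (adjusted p = 0.623).

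VDAC1, a channel of the outer mitochondrial membrane, fell by 1.08 (log2, SE 0.10), and had 60.5, 73.3 and 73.0 CPM in MOLM-13 hairpin 1 libraries against 148, 179 and 150 CPM in scramble. KDELC2, an endoplasmic reticulum glycosyltransferase, fell by 1.58 (SE 0.19). TMEM154, a membrane protein, fell by 1.08 (SE 0.15), and LANCL1, a cytosolic glutathione-binding protein, by 0.93 (SE 0.11). LANCL1 and VDAC1 also differed between the hairpins: LANCL1 was lower with hairpin 1 than with hairpin 2 (-0.52, adjusted p = 0.0335) and VDAC1 was higher (0.41, adjusted p = 0.0408). NRBP1, a pseudokinase, rose by 0.83 (SE 0.09), with 111, 123 and 127 CPM in SKNO1 hairpin 1 libraries against 54.0, 65.0 and 53.7 CPM in scramble. SNN (0.93) and TMEM35B (1.00), both small membrane proteins, also rose.

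HBB, the beta globin gene, had no count in any of the 9 scramble libraries and 102 counts in the 9 hairpin 1 libraries, with 2 to 4 in MOLM-13, 5 to 14 in MV411 and 19 to 24 in SKNO1. Against a floor of 3 counts over the scramble group it was at least 34.8-fold higher with hairpin 1. It was also counted with hairpin 2, at 21 to 33 counts in SKNO1 and 0 to 15 in the other lines. HBB levels stayed under 1 CPM. The 10 erythroid and megakaryocytic markers summed to 0.506 to 0.852 CPM in SKNO1 hairpin 1 libraries and 0.152 to 0.253 CPM in SKNO1 scramble libraries. HBB itself held 0.400 to 0.583 CPM in those SKNO1 hairpin 1 libraries. The sums were 0.208 to 0.359 CPM in MOLM-13 hairpin 1 libraries and 0.100 to 0.301 CPM in scramble. In MV411 they were 0.340 to 0.772 CPM in hairpin 1 libraries and 0.562 to 1.01 CPM in scramble. GP9 averaged 0.192 CPM in MV411 hairpin 1 libraries and 0.738 CPM in scramble, and HBG1 and PF4 were at 0.

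Genes of DNA replication fell almost without exception. In proliferating cells the E2F factors switch on the helicase, polymerase and nucleotide synthesis genes before S phase. Of 49 such genes tested, 48 fell and none rose, and 43 of the 48 were lower in each of the 3 lines. Tested within a line, 46 fell in MOLM-13, 46 in MV411 and 0 in SKNO1. The median log2 fold change of the list was -1.45, against -0.01 over all tested genes; by line it was -1.67 in MOLM-13, -2.04 in MV411 and -0.45 in SKNO1. RPA2, a single-strand binding subunit, was the exception, with a difference of 0.00 (SE 0.10). The count stayed at 45 to 48 when any 1 library was left out, and was 28 without MOLM-13 and 26 without MV411.

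The promoters of 4 of these genes, those with the smallest p among members with an E2F motif, are shown with the motif in capitals (TTTCCCGC, TTTGGCGC or TTTCGCGC, on either strand, overlapping matches merged). They are RefSeq promoter windows on GRCh38.p14, from 250 bases before to 50 bases after the gene start, written in the direction of transcription: MCM3 chr6:52284693-52284992 (minus strand), MCM6 chr2:135876394-135876693 (minus strand), GINS2 chr16:85688905-85689204 (minus strand) and DTL chr1:212035498-212035797 (plus strand).
MCM3: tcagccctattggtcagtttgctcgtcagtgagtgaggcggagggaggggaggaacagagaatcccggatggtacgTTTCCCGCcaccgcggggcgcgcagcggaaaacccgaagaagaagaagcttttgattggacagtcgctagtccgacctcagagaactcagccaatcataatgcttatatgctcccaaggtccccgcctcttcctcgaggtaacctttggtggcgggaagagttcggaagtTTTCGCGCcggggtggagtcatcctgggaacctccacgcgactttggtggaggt
MCM6: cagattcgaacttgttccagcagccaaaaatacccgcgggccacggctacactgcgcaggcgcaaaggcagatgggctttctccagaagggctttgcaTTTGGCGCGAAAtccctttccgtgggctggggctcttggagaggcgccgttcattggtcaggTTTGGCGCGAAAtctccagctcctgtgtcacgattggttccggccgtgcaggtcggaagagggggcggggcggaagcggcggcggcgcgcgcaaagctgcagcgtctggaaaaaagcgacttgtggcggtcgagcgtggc
GINS2: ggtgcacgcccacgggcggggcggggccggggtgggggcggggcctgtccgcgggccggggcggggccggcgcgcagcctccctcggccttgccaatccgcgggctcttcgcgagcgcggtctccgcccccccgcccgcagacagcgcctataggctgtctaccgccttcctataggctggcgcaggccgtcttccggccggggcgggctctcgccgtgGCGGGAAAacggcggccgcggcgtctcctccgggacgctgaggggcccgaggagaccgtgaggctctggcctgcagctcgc
DTL: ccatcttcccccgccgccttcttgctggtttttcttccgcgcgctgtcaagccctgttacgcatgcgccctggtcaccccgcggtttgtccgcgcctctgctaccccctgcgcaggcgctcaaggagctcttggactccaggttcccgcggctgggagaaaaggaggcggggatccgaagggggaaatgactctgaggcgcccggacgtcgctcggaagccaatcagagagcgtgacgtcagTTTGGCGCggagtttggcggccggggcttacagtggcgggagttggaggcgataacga

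MCM3 holds 2 matches, MCM6 4 matches in 2 places, and GINS2 and DTL 1 each. An E2F motif was found in 22 of the 41 promoters of the list that were in the table (53.7%), against 2.79% of all 27305 promoters, 4.43% of those of the tested genes, 10.2% of those of the same-sign genes that fell and 3.59% of those of the same-sign genes that rose. A match describes the sequence and does not show that a factor was bound.

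MCM3, a subunit of the replicative helicase, had 39.2, 44.3 and 45.4 CPM in MOLM-13 hairpin 1 libraries against 128, 134 and 111 CPM in scramble, and 24.5, 25.9 and 27.1 CPM in MV411 hairpin 1 libraries against 116, 61.9 and 115 CPM in scramble. In SKNO1 it had 69.1, 78.6 and 110 CPM in hairpin 1 libraries against 128, 157 and 119 CPM in scramble. The groups were apart in each line, though narrowly in SKNO1, and replicate 2 was the lowest of the MV411 scramble libraries. MCM3 fell by 1.37 over the lines (SE 0.17, adjusted p = 8.97e-05), and its change differed among them (adjusted p = 0.046). PRIM1, the catalytic subunit of primase, had 5.99, 6.56 and 8.30 CPM in MOLM-13 hairpin 1 libraries against 15.3, 22.2 and 27.9 CPM in scramble, and 18.2, 18.5 and 16.9 CPM in SKNO1 hairpin 1 libraries against 30.7, 34.3 and 28.7 CPM in scramble. It fell by 1.52 (SE 0.18, adjusted p = 6.03e-05).

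Other members fell by similar amounts. GINS2, a helicase cofactor, fell by 1.94 (SE 0.26), DTL, which directs CDT1 for degradation, by 1.80 (SE 0.25), and MCM6 by 1.5 (SE 0.20). RFC5, a clamp loader subunit, fell by 1.44 (SE 0.18). CHAF1B, a chromatin assembly factor, was 0.94, 1.27 and 0.91 CPM in MV411 hairpin 1 libraries against 12.7, 6.10 and 12.2 CPM in scramble, and fell by 2.14 (SE 0.29). MCM10 (-2.05), which loads the replication machinery, and, outside the list, the recombination protein XRCC2 (-1.95) and the repressor E2F8 (-1.83) were among the 15 largest drops whose libraries were apart in every line.

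Mitotic genes fell as a group too. All 38 tested members passed, 31 of them lower in each line, and the median log2 fold change was -1.59 (-1.95 in MOLM-13, -2.49 in MV411 and -0.44 in SKNO1). Tested within a line, 37 fell in MOLM-13, 38 in MV411 and 0 in SKNO1. BUB1, a checkpoint kinase, had 10.1, 12.8 and 11.6 CPM in MOLM-13 hairpin 1 libraries against 33.9, 45.1 and 44.5 CPM in scramble, and 32.3, 50.2 and 45.1 CPM in SKNO1 hairpin 1 libraries against 65.0, 90.8 and 61.6 CPM in scramble. It fell by 1.57 (SE 0.22, adjusted p = 0.000154). KIF2C, a kinesin that depolymerises microtubules at centromeres, fell by 1.93 (SE 0.31), KIF11, the spindle motor, by 1.46 (SE 0.22), and NUSAP1, a spindle-associated protein, by 1.40 (SE 0.21). The kinetochore gene NDC80 (-1.92) and, outside the list, its partner SPC24 (-2.06) and the condensin subunit NCAPG (-2.01) were among the largest drops. Of the mitosis promoters in the table, 22 of 31 (71.0%) held the CHR motif TTTGAA, against 15.4% of all promoters and 10.4% of those of the tested genes. CCAAT was held by 80.6%, against 35.7% of all promoters and 36.4% of those of the tested genes. The 7 members whose sign was not shared (KIF18B, UBE2C, AURKB, BIRC5, CDC20, PLK1 and FOXM1) were lower in MOLM-13 and MV411 and had log2 differences of 0.00 (UBE2C) to 0.36 (FOXM1) in SKNO1. Without MOLM-13 19 members passed and without MV411 21.

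The replication-dependent histone genes, which are transcribed in S phase from clusters of similar genes, split the lines. Of 52 tested, 43 fell in the combined comparison and none rose, but 21 of the 43 shared a sign. The list median was -1.91 in MOLM-13, -2.03 in MV411 and 0.03 in SKNO1, and 28 members passed the test of a difference among lines. HIST1H3B, a histone H3 gene, had 21.2, 43.7 and 31.2 CPM in MOLM-13 hairpin 1 libraries against 97.4, 251 and 294 CPM in scramble, while SKNO1 had 118, 152 and 191 CPM in hairpin 1 libraries against 114, 223 and 138 CPM in scramble. The SKNO1 groups overlapped, and its change differed among lines (adjusted p = 0.0115). HIST1H2BJ, a histone H2B gene, was lower in SKNO1 too, which had 84.5, 90.1 and 103 CPM in hairpin 1 libraries against 244, 206 and 271 CPM in scramble, and the gene fell by 2.43 over the lines (SE 0.30, adjusted p = 8.27e-05), the largest drop of the named genes. Reads of near-identical histone genes may be shared among copies, so single values are uncertain. Without MOLM-13 or MV411, 2 and 1 of the histone genes passed.

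**Figure D3:**
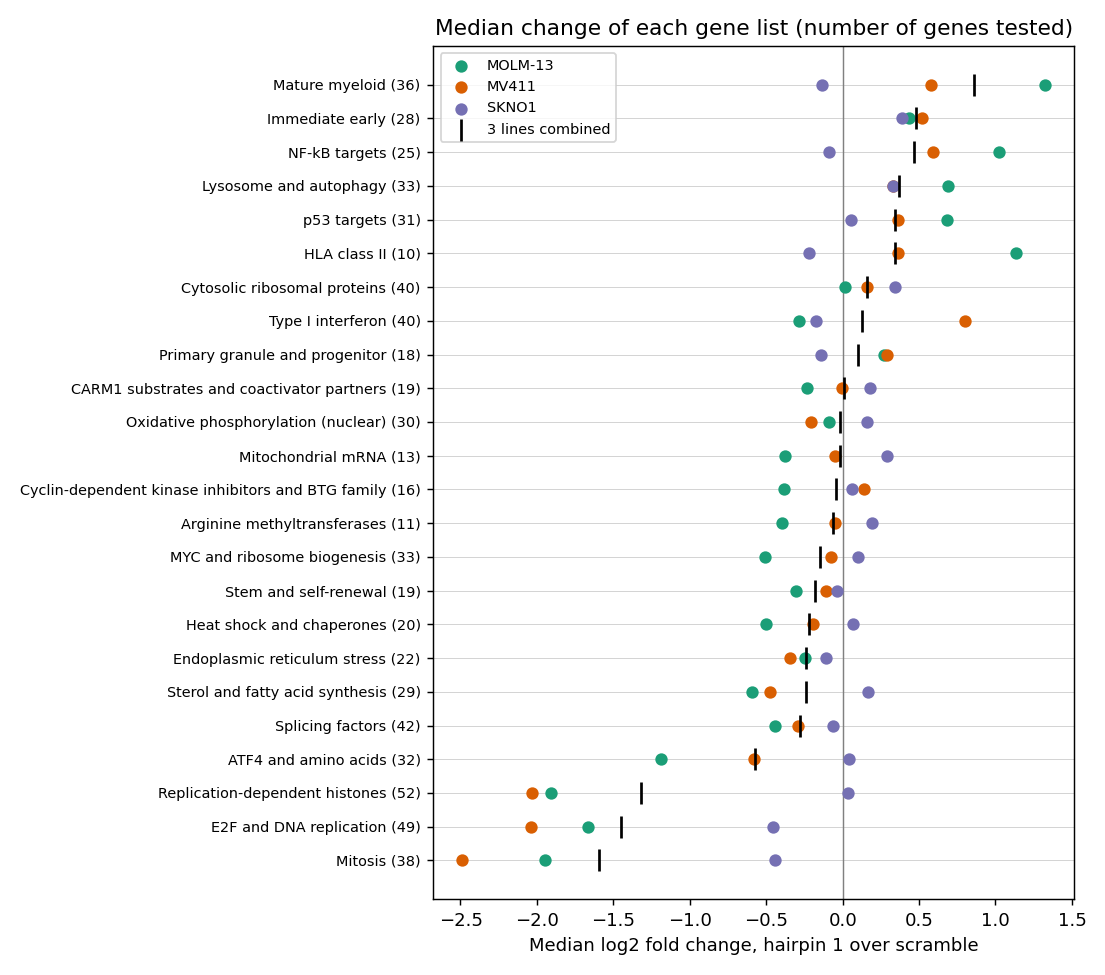
Median log2 fold change, hairpin 1 over scramble (x axis), of each gene list with 10 or more tested genes (y axis, number tested in brackets) in MOLM-13, MV411 and SKNO1 (points) and over the lines (black bar). The replication, mitosis and histone lists lie furthest left, at -1.3 to -1.6 over the lines, with the SKNO1 point near 0 for the histones and at about -0.45 for the other two.

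Regulators of cell cycle exit were mixed. Among 16 cyclin-dependent kinase inhibitors, BTG family and cyclin D genes, 3 rose and 2 fell. CDKN1C, which encodes p57, rose by 1.02 (SE 0.21, adjusted p = 0.00325) with groups apart in each line, at 6.25, 5.85 and 5.51 CPM in SKNO1 hairpin 1 libraries against 2.87, 2.27 and 4.12 CPM in scramble. CDKN1A, which encodes p21, rose by 0.81 (SE 0.18), with 531, 307 and 305 CPM in MOLM-13 hairpin 1 libraries against 258, 225 and 127 CPM in scramble and at most 5.78 CPM in SKNO1. TOB2, a BTG relative, fell by 0.42 (SE 0.10), and CDKN2C, which encodes p18, fell by 0.83 without a shared sign. Of 31 p53 targets, 7 rose (BTG2, CDKN1A, PLK2, RRM2B, EDA2R, PHLDA3 and BBC3) and none fell, with a median of 0.35. That count was 11 without SKNO1 scramble replicate 3, 12 without SKNO1 hairpin 1 replicate 1 and 11 without SKNO1 hairpin 1 replicate 2, and it was 14 with DESeq2.

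Immediate early genes, which respond within minutes to growth factors and stress, rose in part. Of 28 tested, 11 rose and none fell, with list medians of 0.43 in MOLM-13, 0.52 in MV411 and 0.39 in SKNO1. The SKNO1 median was thus near those of the other lines. JUN, a subunit of AP-1, had 9.99, 16.1 and 27.3 CPM in MOLM-13 hairpin 1 libraries against 4.79, 6.19 and 5.51 CPM in scramble, and 6.78, 6.08 and 7.04 CPM in SKNO1 hairpin 1 libraries against 4.83, 2.77 and 5.12 CPM in scramble. It rose by 1.43 (SE 0.23, adjusted p = 0.000427). DUSP1, a MAP kinase phosphatase, rose by 1.02 (SE 0.19), and KLF2, a zinc finger factor, by 1.41 (SE 0.24). RHOB, a small GTPase that is itself induced early, had 16.9, 26.7 and 41.6 CPM in MOLM-13 hairpin 1 libraries against 9.38, 8.80 and 8.35 CPM in scramble, and rose by 1.56 (SE 0.18, adjusted p = 4.63e-05), by nearly the same amount in each line (1.69, 1.52 and 1.45 in MOLM-13, MV411 and SKNO1). ARC, an activity-regulated gene best known from neurons, rose by 1.35 (SE 0.25).

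Of 36 mature myeloid genes, 11 rose and none fell, with a list median of 0.86 (1.33 in MOLM-13, 0.58 in MV411 and -0.14 in SKNO1). CD68, a lysosomal glycoprotein of macrophages, had 325, 223 and 274 CPM in MOLM-13 hairpin 1 libraries against 141, 126 and 68.9 CPM in scramble, and 136, 100 and 90.5 CPM in MV411 hairpin 1 libraries against 46.8, 49.5 and 49.6 CPM in scramble. In SKNO1 it was low, with 11.8, 4.81 and 7.33 CPM in hairpin 1 libraries against 4.59, 3.06 and 4.89 CPM in scramble, where the groups overlapped. It rose by 1.14 over the lines (SE 0.17, adjusted p = 0.000233).

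ADAMDEC1, a secreted metalloprotease of macrophages, had the largest rise of the list, with 42.4, 25.4 and 23.1 CPM in MOLM-13 hairpin 1 libraries against 2.08, 2.07 and 0.646 CPM in scramble, and under 0.1 CPM in every SKNO1 library. Its combined log2 fold change was 3.37 (SE 0.40, adjusted p = 6.03e-05). C3, the central complement component, had 164, 92.0 and 106 CPM in MOLM-13 hairpin 1 libraries against 5.76, 10.8 and 3.57 CPM in scramble, and rose by 2.53 (SE 0.42), and NCF1, a subunit of the phagocyte oxidase, by 1.64 (SE 0.25). Of 18 primary granule and progenitor genes, 1 rose and 2 fell, beside 4.26% of all tested genes that rose and 6.46% that fell. The granulocyte factor CEBPA rose by 0.48 (SE 0.12), and FLT3, a progenitor receptor kinase, and MYB, a progenitor transcription factor, fell by 0.40 (SE 0.10) and 0.36 (SE 0.09). BCL2, an inhibitor of apoptosis, fell by 0.76 (SE 0.17), with -1.38 in MOLM-13, -0.69 in MV411 and -0.21 in SKNO1 and no difference among lines past the threshold (adjusted p = 0.101), and MEIS1 fell by 0.43 (SE 0.10) in the 2 lines with counts. The summed levels of the myeloid blast markers moved with these genes in MOLM-13 (4131 to 6169 CPM in hairpin 1 libraries, 1414 to 4566 CPM in scramble), mostly through LYZ, and ANPEP, another member of that list, rose by 1.10. The part of these blast markers in the results was not tested.

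Genes outside the lists were among the largest rises with groups apart in every line. TMEM176B, a membrane protein of monocytes and dendritic cells, had 16, 13.9 and 13 CPM in SKNO1 hairpin 1 libraries against 8.38, 5.96 and 7.57 CPM in scramble, and rose by 1.94 over the lines (SE 0.30, adjusted p = 0.000322). SEMA6B, a semaphorin, rose by 1.69 (SE 0.24), MMP2, a gelatinase, by 1.48 (SE 0.30), CFP, the complement regulator properdin, by 1.45 (SE 0.24) and IFI30, a lysosomal thiol reductase, by 1.14 (SE 0.20). LIMD2, a LIM domain protein, rose by 1.11 (SE 0.15), with 101, 83.8 and 113 CPM in SKNO1 hairpin 1 libraries against 55.9, 39.1 and 60.1 CPM in scramble. PRAM1 (1.12), an adaptor of myeloid cells, IL21R (1.06), a cytokine receptor, and BAIAP2 (1.11), an adaptor of the actin cytoskeleton, also rose.

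Of 33 lysosome and autophagy genes tested, 13 rose and none fell, all 13 with the same sign in the 3 lines, and the median was 0.37 (0.69, 0.33 and 0.33 in MOLM-13, MV411 and SKNO1). Tested within a line, 15 rose in MOLM-13, 3 in MV411 and 0 in SKNO1. SQSTM1, the autophagy receptor p62 (chr5:179806398-179838078, plus strand), had 295, 270 and 265 CPM in MOLM-13 hairpin 1 libraries against 123, 141 and 116 CPM in scramble, and 202, 157 and 204 CPM in MV411 hairpin 1 libraries against 94.3, 100 and 113 CPM in scramble. In SKNO1 it had 167, 139 and 147 CPM in hairpin 1 libraries against 110, 87.7 and 115 CPM in scramble. The groups were apart in each line and the combined log2 fold change was 0.84 (SE 0.10, adjusted p = 6.34e-05). PSAP, the saposin precursor, rose by 1.10 (SE 0.20), and CTSD, the protease cathepsin D, by 0.98 (SE 0.19).

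Of 25 NF-kB targets, 6 rose and none fell, with a median of 1.02 in MOLM-13, 0.59 in MV411 and -0.09 in SKNO1. ICAM1, the leukocyte adhesion ligand, had 43.0, 38.8 and 43.3 CPM in SKNO1 hairpin 1 libraries against 29.1, 26.5 and 31.7 CPM in scramble, and was apart in every line (1.10, SE 0.17, adjusted p = 0.000319). NFKBIE, an inhibitor of NF-kB, rose by 0.63 (SE 0.12), and BCL3, an atypical member of the inhibitor family, by 0.80 (SE 0.18). BIRC3, an inhibitor of apoptosis and NF-kB target, was higher in MOLM-13. In SKNO1 its mean was lower, but the groups overlapped, with scramble replicate 2 inside the range of the hairpin 1 libraries. It had 11.8, 7.58 and 5.87 CPM in MOLM-13 hairpin 1 libraries against 0.860, 0.800 and 0.666 CPM in scramble, and 21.1, 29.9 and 11.4 CPM in SKNO1 hairpin 1 libraries against 57.9, 27.7 and 55.8 CPM in scramble. The difference among lines passed (adjusted p = 0.000455).

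Of 40 type I interferon genes, 1 rose, LGALS3BP, a secreted scavenger receptor protein (1.57, SE 0.29, adjusted p = 0.00156), and none fell, beside 4.26% of all tested genes that rose. Leaving out MOLM-13 scramble replicate 2, in which IFIT1 (15.8 CPM) and OAS3 (8.03 CPM) were higher than in the other MOLM-13 scramble libraries, gave 5. None of 10 HLA class II genes passed in either direction with edgeR, 3 had an unadjusted p under 0.05, and DESeq2 called 2.

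Of 32 tested genes of amino acid supply under the stress factor ATF4, 15 fell and none rose, 8 of the 15 with a shared sign, and the list medians were -1.19 in MOLM-13, -0.58 in MV411 and 0.04 in SKNO1. ASNS, asparagine synthetase, had 16.1, 19.9 and 22.1 CPM in MOLM-13 hairpin 1 libraries against 56.8, 118 and 109 CPM in scramble, and 7.02, 7.56 and 8.45 CPM in SKNO1 hairpin 1 libraries against 12.1, 15 and 12.6 CPM in scramble. It fell by 1.34 (SE 0.21, adjusted p = 0.000456), and ALDH1L2, a mitochondrial folate enzyme, by 1.34 (SE 0.21). Both differed among the lines (adjusted p = 0.0427 and 0.024). The count was 9 without MOLM-13 hairpin 1 replicate 2.

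Of 42 splicing factor genes tested, 14 fell and none rose, all 14 with the same sign in the lines, and the list median was -0.28. Tested within a line, 12 fell in MOLM-13, 2 in MV411 and 0 in SKNO1. SNRPD1, a core Sm protein, had 31.3, 24.0 and 24.0 CPM in MOLM-13 hairpin 1 libraries against 52.0, 61.0 and 58.2 CPM in scramble, and fell by 0.85 (SE 0.12, adjusted p = 0.000233). SRSF10 (-0.52), an SR protein, and SF3A3 (-0.49), a U2 snRNP subunit, also fell. The count was 8 without MOLM-13 hairpin 1 replicate 2 or MV411 scramble replicate 1, and 9 without MV411 hairpin 1 replicate 1 or SKNO1 scramble replicate 2.

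Counts for lists of metabolism, stress and protein synthesis follow, beside 6.46% of all tested genes that fell and 4.26% that rose. Of 29 sterol and fatty acid genes, 5 fell, led by the desaturase FADS1 (-1.26, SE 0.24) and the sterol reductase DHCR7 (-0.92, SE 0.26), and between 1 and 7 did so when a library was left out. Of 22 genes of the endoplasmic reticulum stress response 4 fell, among them SEC24D (-0.72, SE 0.15), a coat protein of export vesicles. That count was 2 without MOLM-13 hairpin 1 replicate 2 or 3, MV411 scramble replicate 1 or MV411 hairpin 1 replicate 1 or 2. Of 20 heat shock genes, 3 fell (the chaperonin subunits TCP1 and CCT8 and the mitochondrial chaperone HSPD1) and 2 rose, HSPA1A and HSPA1B, a near-identical pair whose reads may be shared. The heat shock genes that fell numbered 1 without MOLM-13 scramble replicate 2, MV411 scramble replicate 1 or MV411 hairpin 1 replicate 1 or 2, and 5 without SKNO1 hairpin 1 replicate 2. Of 33 MYC and ribosome biogenesis genes, 2 fell, beside 6.46% of all tested genes that fell. They were NOLC1, a nucleolar phosphoprotein (-0.49), and ODC1, which makes putrescine (-0.58). Each of the 2 calls was lost when single libraries were left out. Of 40 cytosolic ribosomal protein genes, 2 rose, RPS19 (0.36) and RPLP2 (0.33), beside 4.26% of all tested genes that rose. Between 1 and 5 of the 40 rose when a library was left out. None of 30 nuclear genes of oxidative phosphorylation passed with edgeR or DESeq2, and 3 had an unadjusted p under 0.05 (edgeR).

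Abundant noncoding RNAs differed too. The structured RNAs of the signal recognition particle, the 7SK particle and RNases P and MRP took 15.8% ± 2.01 of the counts in MOLM-13 hairpin 1 libraries and 10.7% ± 0.869 in scramble, 13.6% ± 0.879 in MV411 hairpin 1 libraries and 10.8% ± 0.774 in scramble, and 22.1% ± 0.854 in SKNO1 hairpin 1 libraries and 16.7% ± 1.05 in scramble (SD, n = 3 each). The mean difference was 4.45 percentage points (exact two-sided permutation test within lines, p = 0.00025, adjusted over 3 classes 0.00075). All 5 tested members rose. RN7SK, the scaffold that holds P-TEFb inactive, had 60100, 61800 and 56000 CPM in SKNO1 hairpin 1 libraries against 35700, 48100 and 36900 CPM in scramble, and rose by 0.56 (SE 0.09, adjusted p = 0.000452). RPPH1, the RNA of RNase P, rose by 0.90 (SE 0.15), and RN7SL2, an RNA of the signal recognition particle with a near-identical copy in RN7SL1, by 0.71 (SE 0.10).

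Mitochondrial ribosomal RNA took 28.3% ± 2.85 in MOLM-13 hairpin 1 libraries and 24.9% ± 1.82 in scramble, and 32.4% ± 2.14 in MV411 hairpin 1 libraries and 26.2% ± 1.47 in scramble. In SKNO1 it took 0.204% ± 0.198 in hairpin 1 libraries and 0.0913% ± 0.0153 in scramble (SD, n = 3 each), so SKNO1 libraries differed in this fraction from the other lines in both groups. The difference of 3.24 percentage points gave p = 0.00425 in the exact permutation test (adjusted 0.00638). Neither of the 2 genes passed in the edgeR comparison, over the lines or within any line: MT-RNR1 had a combined log2 difference of 1.02 (SE 0.34, adjusted p = 0.0561) and MT-RNR2 0.72 (SE 0.25, adjusted p = 0.0641). Mitochondrial mRNA differed by -0.09 points (exact p = 0.122). With these RNAs left out before scaling, 2227 genes passed.

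The 2 hairpins target the same gene, and their direct comparison uses no scramble library. Between hairpin 1 and hairpin 2, 1686 of 20342 genes passed (8.29%), 1049 higher (5.16%) and 637 lower (3.13%) with hairpin 1. Without a filter on low counts 2479 passed, 47.4% of them higher, against 62.22% with it. The count was 3106 without MOLM-13 hairpin 1 replicate 1 and 989 without SKNO1 hairpin 2 replicate 1, the extremes over single libraries. With the replicate number as a block it was 1150. Ribosome biogenesis was the list with the largest share of members that differed: 21 of 33 genes were higher with hairpin 1 and none lower, with a list median of 0.49. In the comparison of hairpin 2 with scramble, in which 5903 of 20817 genes passed (28.4%), 2788 higher (13.4%) and 3115 lower (15%), 32 of the 33 fell, against 2 of 33 for hairpin 1; both comparisons share the scramble libraries. The replication, mitosis and histone lists behaved otherwise. Of 49 replication genes, 2 differed between the hairpins, DUT (0.80), a dUTPase, and UHRF1 (0.65), which recruits DNA methyltransferase to replicated DNA, both higher with hairpin 1. With edgeR none of the 38 mitosis genes passed (1 at an unadjusted p under 0.05, 0 with DESeq2) and none of the 52 histone genes (6 at an unadjusted p under 0.05, 1 with DESeq2). Their medians between hairpins were 0.22, 0.09 and 0.20, and a difference that misses the threshold does not show that the hairpins act alike. For BUB1 the difference between hairpins was -0.00 (log2, SE 0.20), beside a drop of 1.57 with hairpin 1.

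**Figure D4:**
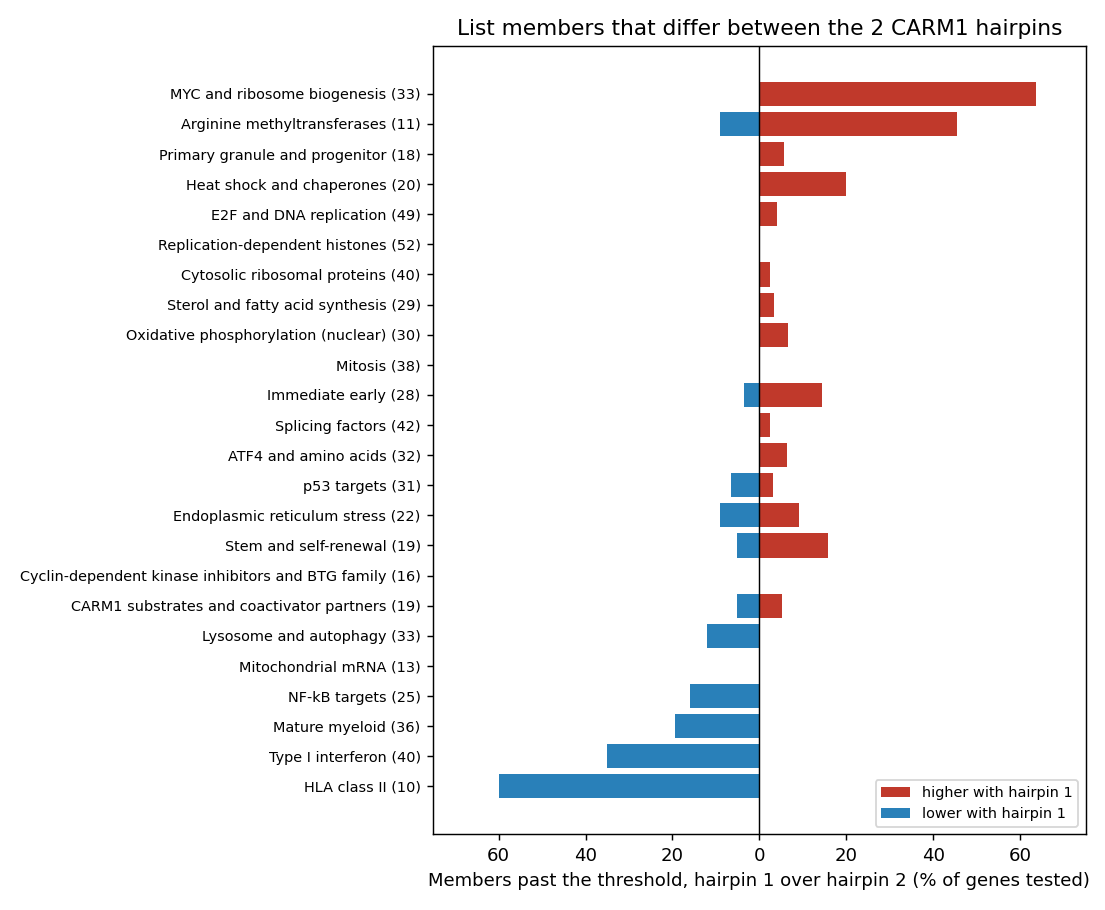
Percent of the tested members of each gene list that were higher (red, to the right) or lower (blue, to the left) with hairpin 1 than with hairpin 2, past an adjusted p of 0.05, ordered by the list median. Ribosome biogenesis genes lie furthest to the right, interferon and HLA class II genes furthest to the left, and the mitosis and histone lists have no bar.

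Of the immune lists, several held members that were lower with hairpin 1 than with hairpin 2. Of 40 interferon genes, 14 were lower and none higher (median -0.70), among them IFIT1 (-2.11, SE 0.49, adjusted p = 0.0125), which binds viral RNA caps, and OAS3 (-2.04, SE 0.43, adjusted p = 0.00696), a sensor of double-stranded RNA. Of 10 HLA class II genes, 6 were lower, such as the antigen-presenting chain HLA-DPB1 (-2.19, SE 0.39, adjusted p = 0.00309). Of 36 mature myeloid genes, 7 were lower (ITGAX, CD86, ALOX5, C3, C3AR1, LILRB1 and LILRB2), C3 by 1.47 (SE 0.33). The largest differences in the other direction were those of IGLL1 (2.00, SE 0.34), a surrogate light chain, KIAA0101 (1.72, SE 0.35), the PCNA-associated factor, BSG (1.62, SE 0.31), a carrier of lactate transporters, CST7 (1.5, SE 0.38), a cathepsin inhibitor, and SLC2A5 (1.48, SE 0.24), the fructose transporter.

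Of the 1901 genes that shared a sign with hairpin 1, 188 differed between the hairpins, beside 1686 of all 20342 tested (8.29%). For 64 of them hairpin 1 lay less far from scramble than hairpin 2 and for 124 it lay further, or on the other side. The hairpin 1 libraries chose these genes and enter both comparisons, so the split is a description. Examples of the 124 were GPR157, an orphan receptor (0.68 with hairpin 1 and -0.67 with hairpin 2, both over scramble), DCAF4, a ubiquitin ligase adaptor (0.42 and -0.50), and TNRC6B, a microRNA silencing factor (-0.35 and 0.37).

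Genes whose change depended on the line included some with no combined call. MIR3142HG, the host transcript of the NF-kB-induced microRNA miR-146a, had 2.41, 1.80 and 1.37 CPM in MOLM-13 hairpin 1 libraries against 0.000, 0.0889 and 0.000 CPM in scramble, and 40.1, 53.2 and 55.7 CPM in SKNO1 hairpin 1 libraries against 87.5, 54.1 and 84.6 CPM in scramble (adjusted p of the difference among lines 0.000455). The SKNO1 groups overlapped at scramble replicate 2. KCNK5, a potassium channel, had 5.58, 7.09 and 7.32 CPM in MOLM-13 hairpin 1 libraries against 17.5, 20.3 and 18.5 CPM in scramble, and 43.0, 38.7 and 48.4 CPM in SKNO1 hairpin 1 libraries against 32.8, 36.5 and 34 CPM in scramble (adjusted p = 0.00128). SLCO4A1, an organic anion transporter, was likewise lower in MOLM-13 (-2.22) and had a log2 difference of 0.46 in SKNO1. In simulated data with changes in SKNO1 alone this test recovered 7% of 2-fold and 60% of 4-fold differences. Most such differences of 2-fold would thus be missed.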

How the data were processed

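RNA was extracted with Trizol and RNeasy columns and libraries were made with a stranded, ribosomal RNA-depleted kit, per the labels' protocols. The deposited values are RSEM expected counts per gene, made by the authors with STAR 2.5.3 and GRCh38.p7, per the submitters' processing notes. The RSEM version, annotation release and strand setting are not given in the sources used here. Of the non-zero values, 30.39% were not whole (tolerance 1e-09), and all were rounded. Totals were 29004790 to 53291599 per library, and 57388 of 57992 gene IDs matched GENCODE 29, which gave coordinates.

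In R 4.3.3, edgeR 4.0.16 (filterByExpr, minimum count 10 and minimum total 15; TMM; quasi-likelihood F-test) compared 9 hairpin 1 with 9 scramble libraries with an additive line term. Further fits gave effects by line with an interaction test of 2 degrees of freedom, hairpin 1 against hairpin 2, and hairpin 2 against scramble. P-values were Benjamini-Hochberg adjusted over all tested genes, with a threshold of 0.05. RNA class shares and CARM1 were compared by exact permutation within lines. The fits were tested on simulated data. DESeq2 1.42.0, limma 3.58.1 and other settings served as alternatives. Same-numbered replicates were not treated as paired, since 1 of 9 correlations was under 0.1. Each hairpin 1 library did correlate best with the scramble library of its own number, so pairing is not excluded.

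Genes were named by rule: the arginine methyltransferases, up to 15 per direction with the largest change, a shared sign, mean log2 CPM of at least 2 and no overlap of libraries in any line, up to 4 members per list by smallest p in the main direction and 1 in the other, and up to 5 by interaction and, per direction, between hairpins. The comparison, members and lists were chosen with earlier results of these data known. The genes that passed in each line, C3, ANPEP, CDKN2C, the marker genes named and the examples of genes further from scramble with hairpin 1 were chosen after their values were seen. Promoters came from the RefSeq table for GRCh38.p14, and motifs were searched on both strands. No pair of replicates agreed within sampling noise, at which chi-square per gene is about 1; the closest pair, SKNO1 scramble replicates 1 and 3, gave 7.75, so they were counted as separate samples. Some genes that the rule picks, or that passed in each line, are not reported here.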

Additional observations from a re-analysis of the deposited data

Results flagged for a closer look

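For 25 of the named genes reported here the effect of hairpin 1 differed among the cell lines in edgeR's interaction test. The values that follow are its adjusted p, and groups of 3 libraries were too small for a test of single outlying samples.

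The named genes of DNA replication and mitosis with such a difference fell further in MOLM-13 and MV411 than in SKNO1. The adjusted p was 0.0032 for CHAF1B, 0.00319 for SPC24, 0.0437 for MCM10, 0.0361 for NCAPG, 0.00905 for GINS2, 0.0441 for KIF2C, 0.0123 for E2F8 and 0.046 for MCM3. SPC24, for example, had log2 fold changes of -2.27 in MOLM-13, -3.39 in MV411 and -0.62 in SKNO1. Among other genes, CTNNAL1, an alpha-catenin-like protein, gave 0.0275, ZNF367, a zinc finger factor, 0.00869, and TCF19, a cell cycle-regulated factor, 0.00121, with -2.28 in MOLM-13, -3.42 in MV411 and -0.03 in SKNO1 for TCF19. Among the histone genes HIST1H4I gave 0.00282, HIST1H3B 0.0115 and HIST2H2AB 0.0483.

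ALDH1L2 (0.024) and ASNS (0.0427) fell most in MOLM-13, where their log2 fold changes were -2.32 and -2.29. TMEM176B (0.0432), LIMD2 (0.0333) and NFKBIA (0.0177) rose most there, by 3.36, 1.79 and 1.46.

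Signs differed for MIR3142HG (0.000455) and BIRC3 (0.000455), both higher in MOLM-13 and lower on average in SKNO1, where the groups overlapped. They also differed for SLCO4A1 (0.00119) and KCNK5 (0.00128), both lower in MOLM-13. PTPRO, a receptor tyrosine phosphatase, gave 0.0337, with 1.38 in MOLM-13, -1.49 in MV411 and -1.35 in SKNO1. IGLL1 gave 0.0091, with -2.93 in MOLM-13, -4.29 in MV411 and -0.12 in SKNO1. The depth of the CARM1 knockdown, the GM-CSF supplement, the fusion and the share of mitochondrial ribosomal RNA differed between the lines, and the part of each was not tested.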

How the results depend on the processing

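Of the 20428 tested genes, 2190 passed between hairpin 1 and scramble, and the count kept within 1.5 times of that under every alternative but the omission of a line: 710 without MOLM-13, 501 without MV411 and 3815 without SKNO1. It was 2271 with DESeq2 size factors, 2774 without a filter on low counts, 2934 with DESeq2, 2418 with limma-voom and 1666 to 2538 with any 1 library left out. Same-numbered hairpin 1 and scramble libraries correlated at 0.0656 to 0.376, and hairpin 1 libraries correlated best with their own number in every case, a hint from the data and not the design. With the replicate number as a block 2430 genes passed, 1150 between the hairpins, against 1686 without the block, and 1683 among lines, against 639.

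The count of genes whose effect differed among lines was also 1675 without a filter and 1705 with DESeq2. Over single libraries it ran from 90 to 1128: 364 without MOLM-13 scramble replicate 2, 395 without scramble replicate 3, 345 without MV411 scramble replicate 3, 353, 366 and 378 without MV411 hairpin 1 replicates 1, 2 and 3, 189 without SKNO1 scramble replicate 3 and 215 without SKNO1 hairpin 1 replicate 3. The count between hairpins ran from 989 to 3106: 2673 without MOLM-13 hairpin 2 replicate 1, 1031, 1110 and 1043 without MV411 hairpin 1 replicates 1, 2 and 3, 1039 and 1112 without MV411 hairpin 2 replicates 1 and 2, 1045 without SKNO1 hairpin 1 replicate 3 and 1001 and 1069 without SKNO1 hairpin 2 replicates 2 and 3. The cause was not tested.

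Signs turned only for genes that did not pass. PRMT1 was 0.0251 with DESeq2 size factors and 0.0252 with DESeq2, 0.00775 with abundant RNAs left out, 0.0163 with all 27 libraries, 0.233 without MOLM-13 and 0.0304 without MV411, and -0.0559 to 0.0563 over single libraries. PRMT3 was 0.23 without MOLM-13 and -0.119 to 0.0521 over single libraries. PRMT5 was -0.16 without SKNO1 and -0.0246 to 0.109 over single libraries. PRMT6 was 0.15 without MOLM-13, 0.00043 without MV411 and -0.0928 to 0.021 over single libraries. PRMT7 was -0.0376 without SKNO1, and KCNK5 0.20 without MOLM-13.

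Calls of NOLC1, ODC1, DHCR7, SQLE, SEL1L, EDEM1, CCT8, HSPD1 and RPLP2, among others, were lost when single libraries were left out. Of the 105 named genes compared with scramble, 34 lost their call without MOLM-13, 37 without MV411 and 4 without SKNO1, where fewer samples were tested. Without MOLM-13, without MV411 and without SKNO1, in that order, 2, 2 and 15 NF-kB targets, 1, 1 and 18 p53 targets, 2, 5 and 26 ATF4 genes and 1, 1 and 23 splicing factors passed; 6 and 4 lysosome genes and 7 and 4 immediate early genes did so without MOLM-13 and without MV411. Without a filter on low counts, 21 mature myeloid, 13 NF-kB and 25 ATF4 genes passed. The structured RNA difference was 4.11 to 4.78 points over single libraries.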

Other observations

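Protein-coding genes made up 85.06% of the 1901 genes that shared a sign with hairpin 1 and 68.84% of all tested genes. The others included 70 antisense transcripts, 59 long intergenic RNAs and 33 small nucleolar RNAs. SNORA81, a small nucleolar RNA that guides pseudouridylation, was among the 15 largest rises, with a log2 fold change of 1.09 (edgeR). Reads of small nucleolar RNAs and of their host genes may overlap.

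POU4F1, a transcription factor of RUNX1-RUNX1T1 leukaemia, fell by 1.00 on the log2 scale and was chosen after its value was seen. CD3D, a T cell receptor gene with a mean of 0.326 CPM in MOLM-13 hairpin 1 libraries and 1.56 CPM in MOLM-13 scramble libraries, fell by 2.17, while CD3G was at 0 in all of the 18 libraries.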
